A study of Homo sapiens with 78 samples.

Results

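The response of A549 cells to 1 h of interleukin-1β (IL-1β) was measured by comparing the 4 libraries of cells treated with IL-1β for 1 h with the 4 libraries of cells left unstimulated (NS) for the same hour. These 8 libraries were chosen by treatment and time alone, from 78 labelled libraries in all, and 13327 genes were tested. A549 is a cell line grown from a human lung carcinoma and is used as a model of alveolar type II epithelium, so the data describe 1 cancer line in culture. In both groups the cells had been kept in serum-free medium since the day before. IL-1β was given at 1 ng/ml. The rest of the series holds the same 2 treatments at 2, 6, 12 and 24 h, and cells given budesonide (an inhaled glucocorticoid that activates the glucocorticoid receptor, GR) at 300 nM, alone or with IL-1β. Libraries came from independent experiments, 4 at 1 h, and were made from poly(A) RNA. Gene levels are given in TPM, which scale the reads of a gene to its length and to the library, as the authors normalized them between libraries.

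IL-1β is a cytokine released early in infection and injury. Its receptor recruits MYD88, IRAK kinases and TRAF6, and these activate the kinases that mark the inhibitor IκBα (encoded by NFKBIA) for destruction, which frees nuclear factor κB (NF-κB) to enter the nucleus. The same receptor activates mitogen-activated protein kinases (MAPKs), which act on the AP-1 family and on serum response factor (SRF). In airway epithelium the pathway is known for the release of neutrophil-attracting chemokines and for fast negative feedback by inhibitors that are themselves target genes.

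A difference is given as log2(TPM + 0.5) in IL-1β minus the same in NS, with its standard error (SE), from limma fitted to all 78 libraries with Benjamini-Hochberg adjustment over the 13327 genes. The pseudocount of 0.5 understates the change of genes with low values. Called genes are those with a difference of 1 or more in size (a 2-fold change) and an adjusted p of 0.05 or less. The 8 libraries were alike in their sums, 817304 to 878430 TPM, and in the genes at 1 TPM or more, 11986 to 12133. Mitochondrially encoded genes took 14.3% ± 1.16 of the sum in IL-1β libraries and 14.7% ± 0.48 in NS libraries (SD, n = 4 each, exact two-sided permutation test, p = 0.571, where 0.0286 is the smallest p that 4 against 4 can give). All 15 epithelial and A549 markers passed the filter on low values and 0 of them were called (limma, 2 at an unadjusted p under 0.05). Over all tested genes 1.02% were called higher. On adjusted p alone 1 of the 15 was higher, and their differences lay between -0.36 and 0.72. Of 10 alveolar type II markers 5 passed, and the surfactant genes SFTPA1, SFTPA2 and SFTPB were at or below 0.252 TPM in each of the 8 libraries. Of 13 immune cell markers 3 passed, and their sum over all 13 lay between 11.7 and 14.0 TPM in IL-1β libraries and between 15.3 and 17.7 TPM in NS libraries. The table does not give the reads of each library. Nothing in the labels ties a library to 1 of the experiments.

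At the 2-fold minimum the response at 1 h was almost wholly upward. On adjusted p alone it was less so, with 272 genes higher and 60 lower. With both thresholds, IL-1β raised 136 genes, which is 1.02% of those tested, and lowered 1 gene (RGS2), which is 0.0075%. The median difference over the 136 genes was 1.91, and 73 of them lay between 1 and 2, 32 between 2 and 3, 16 between 3 and 4, and 15 at 4 or more. All 4 IL-1β libraries lay above all 4 NS libraries for 134 of the 136, against 3.86% of all tested genes. The same 8 libraries chose the 136, so little overlap follows from the choice and is no separate support. The 2 exceptions were ARL14 and CDC42EP2. Genes called higher are favoured where NS levels are low, and a gene could pass the filter in any treated group, so the levels of the 136 at rest are a description. Their mean level had a median of 25.0 TPM in IL-1β libraries and 4.69 TPM in NS libraries, against 12.3 and 12.6 TPM over all tested genes in the same 2 groups. Together they took 1.21% to 1.50% of the summed TPM in IL-1β libraries and 0.196% to 0.215% in NS libraries. The median difference over all tested genes was -0.042. Without each of the 8 libraries in turn, 125 of the 136 genes stayed called. The 11 that lost the call without at least 1 library were ARL14, C11orf96, CCL5, CDC42EP2, EBI3, IL1B, N4BP3, POU5F1, SPRY4, TFF1 and UBD, whose differences with all libraries were at most 1.42 (TFF1).

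**Figure D1:**
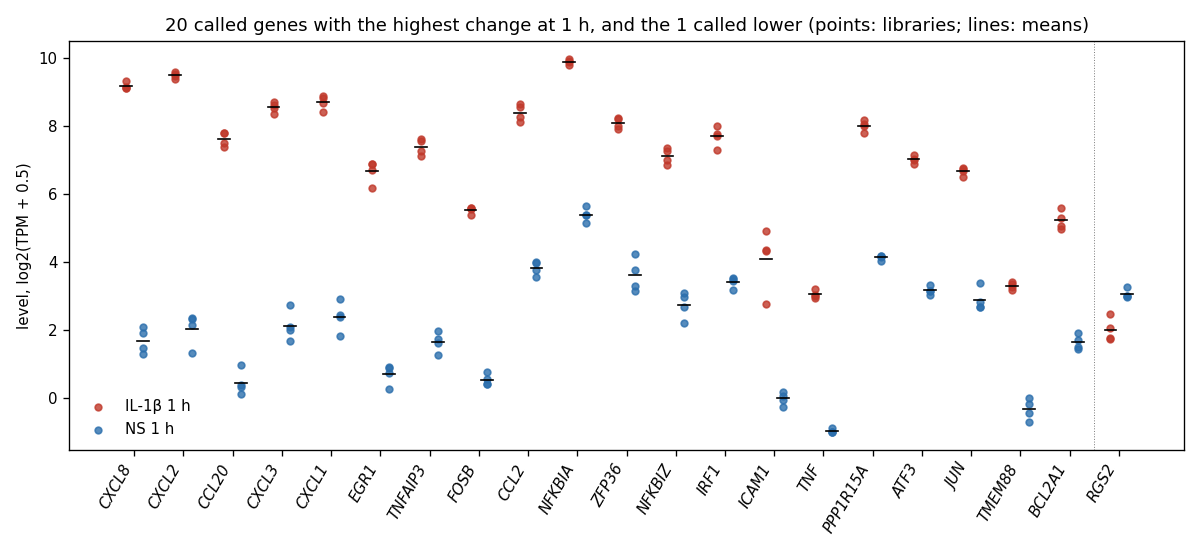
Level of the 20 called genes with the highest difference at 1 h, and of RGS2, as log2(TPM + 0.5) in each IL-1β library (left of each pair) and each NS library (right of each pair); points are libraries and lines are group means. The groups do not overlap for any of the 21 genes, and ICAM1 shows the widest spread among the IL-1β libraries, with levels of 29.3, 19.6, 19.4 and 6.32 TPM.

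Chemokines that attract neutrophils led the response. Of 6 CXC chemokines listed here as neutrophil attractants, all tested, 5 rose. For this and each later list at 1 h, the share called higher over all tested genes was 1.02%. Their median difference was 6.37, against -0.042 over all tested genes. CXCL8, which encodes interleukin-8, the main neutrophil attractant of epithelium, had 571, 556, 637 and 557 TPM in IL-1β libraries, against 1.94, 2.28, 3.70 and 3.21 TPM in NS libraries. Its difference was 7.50 ± 0.22 (SE, limma adjusted p = 2.83e-38), the highest of all genes tested. CXCL2, a ligand of the same receptor family, had 705, 742, 773 and 667 TPM in IL-1β libraries, against 2.01, 3.94, 4.54 and 4.51 TPM in NS libraries (difference 7.46 ± 0.17). Both mRNAs were below 5 TPM in each NS library, and among the 136 genes they had the second and the fourth highest mean TPM with IL-1β. CXCL1 had 469, 406, 452 and 337 TPM in IL-1β libraries, against 3.02, 4.92, 6.97 and 4.68 TPM in NS libraries (difference 6.31 ± 0.17), and CXCL3 differed by 6.43 ± 0.17. CXCL5 started from a higher level, with 279, 202, 248 and 184 TPM in IL-1β libraries and 58.5, 61.9, 79.1 and 65.0 TPM in NS libraries, and its difference was 1.77 ± 0.16. The exception in this list was CXCL6, which stayed below 0.5 TPM in both groups, with a difference of 0.59 (adjusted p = 0.244). The CXC chemokine genes CXCL10, CXCL11 and CXCL16 were tested outside this list and were not called.

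The CXC genes that rose lie in 1 stretch of chromosome 4, in the order CXCL8, CXCL1, CXCL5, CXCL3, CXCL2, with gaps of 37.9 to 125.7 kb between neighbours (GRCh38, GENCODE). The 4 of them other than CXCL8 hold the same run of letters, GGGAATTTCCC, within 100 bases before the start of the gene. This run matches the NF-κB motif (the NF-κB motif was searched on both strands by its usual 10-base consensus, and overlapping matches were merged into 1 run), and it is shown in capitals with 15 bases on each side, 5′ to 3′ on the strand of the gene, to let the flanks be compared (promoter sequences of RefSeq, GRCh38.p14).
CXCL1 (chr4:73869299-73869339, plus strand, run starting 79 bases before the start): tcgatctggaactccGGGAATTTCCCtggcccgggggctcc
CXCL2 (chr4:74099248-74099288, minus strand, 78 bases before): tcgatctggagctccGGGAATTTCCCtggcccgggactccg
CXCL3 (chr4:74038743-74038783, minus strand, 79 bases before): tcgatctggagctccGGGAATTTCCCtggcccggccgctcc
CXCL5 (chr4:73998743-73998783, minus strand, 91 bases before): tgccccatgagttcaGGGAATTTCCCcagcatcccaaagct
Of the 30 flanking letters shown, 24 to 27 were the same between any pair of CXCL1, CXCL2 and CXCL3. Between these and CXCL5, 9 to 11 were the same. A link between the flanks and the size of the difference was not tested. These genes are paralogs, and 9.23% to 23.6% of the 31-base stretches in the transcripts of these 4 also occur in another gene, so some of their reads may have been split between them. In the CXCL8 promoter window no match to this consensus was found, which says only that these letters are not there.

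Chemokines for other leukocytes rose with them. Of 8 tested, 4 rose, with a median difference of 0.64. CCL20, the ligand of CCR6 that attracts dendritic cells and lymphocytes, had 181, 166, 219 and 223 TPM in IL-1β libraries, against 0.566, 0.752, 0.807 and 1.44 TPM in NS libraries (difference 7.18 ± 0.33, limma adjusted p = 6.75e-28). CCL2, the monocyte attractant, had 397, 374, 274 and 306 TPM in IL-1β libraries, against 13.0, 15.0, 11.2 and 15.4 TPM in NS libraries (difference 4.57 ± 0.16). Both were high in each IL-1β library. CX3CL1 (1.21) and CCL5 (1.03) also passed, at mean levels near 1 TPM in IL-1β libraries. The call of CCL5 was lost without any 1 of 6 of the 8 libraries (replicates 1, 2 and 3 of either group), where its difference went as low as 0.84 (highest adjusted p = 0.212).

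Of 23 cytokines tested 12 rose, and the median difference was 1.02. Several were at or near 0 in NS libraries. TNF, the cytokine that shares much of the NF-κB response, had 8.63, 7.50, 7.68 and 7.10 TPM in IL-1β libraries and was listed at 0 in NS libraries 1, 2 and 3 and at 0.0356 TPM in library 4 (difference 4.01 ± 0.12). IL1A, the other IL-1 agonist, had 5.63, 5.02, 5.12 and 5.02 TPM in IL-1β libraries and at most 0.0448 TPM in NS libraries (3.45 ± 0.17). CSF2, which encodes the granulocyte and macrophage growth factor GM-CSF, had 8.59, 5.13, 3.90 and 4.68 TPM in IL-1β libraries and at most 0.0676 TPM in NS libraries (3.46 ± 0.20). IL6, the inducer of the acute phase in liver, varied more among replicates, with 3.82, 5.79, 8.43 and 2.39 TPM in IL-1β libraries and at most 0.067 TPM in NS libraries (3.28 ± 0.25). The other cytokines that rose were IL23A (1.84), CSF1 (1.71), IL32 (1.70), CLCF1 (1.41), LTB (1.29), IL11 (1.11), EBI3 (1.04) and IL1B itself (1.02). The last of these was below 1.4 TPM in each library, and its call was lost without IL-1β library 3 or NS library 4, with a lowest difference of 0.80. IL-1β protein was the stimulus, and the values count the cells' own IL1B mRNA.

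Some inhibitors of NF-κB rose steeply. Most parts of the pathway above them were not called, which holds for most genes, since 1.02% of all tested genes were called higher. Of 18 feedback genes tested 6 rose, and the median over all 18 was 0.16. NFKBIA, which encodes IκBα, had 942, 969, 996 and 887 TPM in IL-1β libraries, against 40.8, 40.8, 49.3 and 34.5 TPM in NS libraries (difference 4.51 ± 0.11, limma adjusted p = 1.44e-43). These are higher levels than those of CXCL8 in the same libraries. TNFAIP3, which encodes the ubiquitin-editing enzyme A20, had 188, 152, 194 and 138 TPM in IL-1β libraries, against 2.57, 2.81, 3.42 and 1.87 TPM in NS libraries (difference 5.74 ± 0.23). NFKBIZ, an IκB-like nuclear cofactor needed for IL6 and other secondary genes, had 154, 126, 162 and 114 TPM in IL-1β libraries, against 4.10, 7.32, 7.89 and 5.82 TPM in NS libraries (4.38 ± 0.24). NFKBID (3.44), NFKBIE (2.64) and BCL3 (1.87), all of the IκB family, rose too. Of the 5 NF-κB subunits only NFKB2 was called, with 79.8, 71.6, 62.1 and 59.9 TPM in IL-1β libraries and 21.2, 17.0, 16.2 and 18.3 TPM in NS libraries (1.88 ± 0.15). REL (0.85) and RELB (0.74) passed on adjusted p alone, RELA differed by 0.33 (adjusted p = 0.569), and NFKB1 had 14.8, 9.89, 11.4 and 11.4 TPM in IL-1β libraries and 11.5, 12.2, 10.9 and 12.6 TPM in NS libraries.

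Of 24 genes of IL-1 receptor signaling only MAP3K8, a kinase upstream of ERK, was called (1.50 ± 0.11), and of 10 TRAF adaptor genes only TIFA (1.86 ± 0.12), which helps TRAF6 to oligomerize. The receptor gene IL1R1 had 19.8, 13.8, 18.0 and 21.6 TPM in IL-1β libraries and 19.0, 17.4, 18.5 and 22.3 TPM in NS libraries, a difference of -0.09 ± 0.23 (adjusted p = 0.992). BIRC3 and BIRC2 are neighbouring genes for ubiquitin ligases that inhibit apoptosis and act in NF-κB signaling. BIRC3 had 110, 74.1, 64.0 and 60.3 TPM in IL-1β libraries, against 11.3, 9.58, 7.63 and 9.62 TPM in NS libraries (2.92 ± 0.17, limma adjusted p = 7.97e-23). BIRC2 had 39.7, 31.1, 33.3 and 27.4 TPM in IL-1β libraries and 22.5, 26.9, 22.6 and 27.0 TPM in NS libraries, and its difference of 0.39 ± 0.13 had a limma adjusted p of 0.109, or 0.00971 with the replicate number as a block, below the minimum fold in either case. The groups did not overlap for BIRC2 either.

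The promoters of 3 of these genes are shown because they hold NF-κB matches in different arrangements. Each runs from 250 bases before to 50 bases after the start that RefSeq gives, with the matches in capitals.
NFKBIA (chr14:35404700-35404999, minus strand, 1 match, starting 81 bases before the start): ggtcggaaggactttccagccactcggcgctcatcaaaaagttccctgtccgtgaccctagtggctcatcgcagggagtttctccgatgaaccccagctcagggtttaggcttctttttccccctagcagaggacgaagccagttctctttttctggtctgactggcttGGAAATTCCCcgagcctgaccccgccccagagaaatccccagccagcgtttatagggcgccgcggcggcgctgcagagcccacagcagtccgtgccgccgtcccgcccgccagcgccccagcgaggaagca
TNFAIP3 (chr6:137867009-137867308, plus strand, 2 matches, 67 and 55 bases before): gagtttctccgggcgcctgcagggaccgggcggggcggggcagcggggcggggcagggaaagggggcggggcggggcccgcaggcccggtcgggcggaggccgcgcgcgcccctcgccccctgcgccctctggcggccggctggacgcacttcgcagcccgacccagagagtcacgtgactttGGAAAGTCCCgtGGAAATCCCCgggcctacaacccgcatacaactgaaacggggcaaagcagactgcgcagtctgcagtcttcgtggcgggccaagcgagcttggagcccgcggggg
BIRC3 (chr11:102317234-102317533, plus strand, 2 matches, 199 and 135 bases before): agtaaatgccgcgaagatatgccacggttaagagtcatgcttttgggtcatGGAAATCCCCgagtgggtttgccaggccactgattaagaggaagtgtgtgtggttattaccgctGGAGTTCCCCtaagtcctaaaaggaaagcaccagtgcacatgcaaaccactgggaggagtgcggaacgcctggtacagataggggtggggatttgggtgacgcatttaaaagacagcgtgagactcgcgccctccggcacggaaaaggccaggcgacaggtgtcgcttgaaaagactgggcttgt
TNFAIP3 and BIRC3 were the 2 genes, of the 102 called higher with a window (1.96%), that held 2 separate NF-κB matches, and they differed by 5.74 and 2.92. As many matches stood in 0.287% of all windows. They also stood in 6 of 192 windows (3.1%) of genes called higher at 2 h but not at 1 h, so the arrangement is not particular to 1 h. Not every gene had a window, and these shares are descriptions. For BIRC3 the study measured binding, and reported that IL-1β recruited RELA to a region just before the start. With a scored motif search it listed more RELA motifs there than the 2 matches found here. Deleting any of those motifs lowered the activity of a reporter in the study.

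A promoter window was found for 102 of the 136 genes (75.0%) and for 10820 of the 13327 tested (81.2%). Because fewer than 80% of the 136 had one, a comparison of motif shares between the 136 and all tested genes is void, and the shares describe the 102 only. An NF-κB match was present in 24 of the 102 (23.5%, 95% Wilson interval 16.4% to 32.6%), and in 6.62% of all windows. The AP-1 motif (TGANTCA) was in 10 (9.80%, against 4.70% of all windows), the cyclic AMP response element (TGACGTCA) in 8 (7.84%, against 3.12%) and the SRF motif, the CArG box, in 2 (1.96%, against 1.06%). None of the 4 motifs was found in 61 of the 102. Further windows with an NF-κB match included those of IL6, CCL20, IRF1 and IL23A, which are printed to show how the letters of the match vary.
IL6 (chr7:22727112-22727151, plus strand, 73 bases before): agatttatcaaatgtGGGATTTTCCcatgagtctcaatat
CCL20 (chr2:227813748-227813787, plus strand, 79 bases before): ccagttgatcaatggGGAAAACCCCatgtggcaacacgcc
IRF1 (chr5:132490799-132490838, minus strand, 50 bases before): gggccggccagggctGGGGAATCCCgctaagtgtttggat
IL23A (chr12:56338774-56338813, plus strand, 95 bases before): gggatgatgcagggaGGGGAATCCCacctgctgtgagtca
A match is a stretch of letters and not a measured site of binding.

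Immediate early transcription factors made up the next group. Of 15 AP-1 family genes 7 rose (median over all 15, 0.86), and of 18 EGR, NR4A and IER genes 10 rose (median 1.32). EGR1, a zinc finger factor that serum and stress induce within minutes, had 72.0, 117, 104 and 117 TPM in IL-1β libraries, against 0.696, 1.38, 1.15 and 1.31 TPM in NS libraries (difference 5.97 ± 0.19, limma adjusted p = 6.29e-36). FOSB had 47.4, 46.8, 47.6 and 41.4 TPM in IL-1β libraries, against 0.821, 1.19, 0.818 and 0.968 TPM in NS libraries (5.00 ± 0.23). FOS, its paralog, varied far more. It had 18.6, 37.0, 35.6 and 59.2 TPM in IL-1β libraries and 2.89, 5.74, 5.54 and 10.1 TPM in NS libraries (2.54 ± 0.45), so the library numbered 4 was the highest and the library numbered 1 the lowest in both groups. ATF3 (3.85 ± 0.22), JUN (3.78 ± 0.16), FOSL1 (2.82), MAFF (2.54) and JUNB (2.28) were the other AP-1 genes called. JUN, the partner that FOS proteins bind, had 101, 105, 109 and 88.9 TPM in IL-1β libraries and 5.85, 5.88, 6.49 and 9.91 TPM in NS libraries. FOSL2, JUND and MAFK passed on adjusted p alone, at 0.52 to 0.86.

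The EGR1 window is shown because it was the only one of the 102 with 2 CArG boxes, which SRF binds and which stand in capitals. Of all windows 0.037% held as many, a share given as a description only.
EGR1 (chr5:138465229-138465528, plus strand, 105 and 83 bases before the start): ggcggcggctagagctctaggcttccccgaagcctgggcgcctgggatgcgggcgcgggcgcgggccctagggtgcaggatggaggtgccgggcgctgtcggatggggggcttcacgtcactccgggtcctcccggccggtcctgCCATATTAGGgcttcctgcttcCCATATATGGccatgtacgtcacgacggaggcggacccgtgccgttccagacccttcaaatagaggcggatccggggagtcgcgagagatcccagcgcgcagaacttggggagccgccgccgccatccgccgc
The other members of the EGR, NR4A and IER list that rose were IER3 (3.09), NR4A1 (3.08), EGR3 (2.63), IER2 (2.60), NR4A2 (2.08), BHLHE40 (1.56), EGR2 (1.55), NR4A3 (1.48) and IER5 (1.17). NR4A1, an orphan nuclear receptor, had 149, 161, 192 and 134 TPM in IL-1β libraries and 14.2, 16.2, 23.9 and 19.9 TPM in NS libraries. Of 17 KLF and C/EBP factors KLF10 (2.43), CEBPD (2.20) and KLF6 (2.11) rose, and KLF2, KLF3, KLF4, CEBPB and CEBPG passed on adjusted p alone at 0.24 to 0.89.

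Genes that restrain MAPKs and destabilize mRNA rose in the same hour. Of 17 MAPK feedback genes 5 rose, namely the phosphatase genes DUSP1 (2.78), DUSP8 (2.11), DUSP10 (1.98) and DUSP5 (1.79), and SPRY4 (1.07), an inhibitor of receptor tyrosine kinase signaling. DUSP1 had 171, 235, 228 and 256 TPM in IL-1β libraries, against 27.1, 29.1, 31.1 and 40.7 TPM in NS libraries (2.78 ± 0.12, limma adjusted p = 6.77e-29). Of 14 genes of mRNA decay and growth restraint 4 rose. ZFP36, which encodes tristetraprolin, a protein that binds AU-rich elements and removes cytokine mRNAs, had 239, 256, 294 and 303 TPM in IL-1β libraries, against 9.32, 8.25, 13.0 and 18.0 TPM in NS libraries (4.49 ± 0.22). ZC3H12A, which encodes the endonuclease regnase-1, had 65.9, 54.3, 64.3 and 59.4 TPM in IL-1β libraries, against 5.36, 6.62, 6.54 and 8.64 TPM in NS libraries (3.09 ± 0.18). BTG2 (2.05) and ZFP36L1 (1.63) also rose. Of 7 SOCS genes SOCS3 alone was called, at 2.36 ± 0.14.

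Genes of cell death were called on both sides of survival. Of 35 tested 5 rose, and the median over all 35 was 0.03. Besides BIRC3, the antiapoptotic BCL2A1 had 32.6, 38.6, 47.9 and 30.5 TPM in IL-1β libraries, against 2.29, 2.75, 2.17 and 3.24 TPM in NS libraries (3.59 ± 0.20). The proapoptotic BBC3, which encodes PUMA, had 43.8, 38.6, 44.7 and 32.8 TPM in IL-1β libraries, against 9.42, 9.37, 11.6 and 8.78 TPM in NS libraries (1.97 ± 0.11). PMAIP1, which encodes NOXA, another proapoptotic protein, differed by 1.18, and TNFRSF9, a costimulatory receptor, by 1.29. Of 23 stress and p53 genes 7 rose (median over all 23, 0.51). PPP1R15A, which encodes the phosphatase subunit GADD34 that restores translation after stress, had 253, 268, 289 and 221 TPM in IL-1β libraries and 15.9, 17.5, 17.4 and 17.1 TPM in NS libraries (3.88 ± 0.08, limma adjusted p = 4.62e-47). The others were PIM3 (2.00), PIM1 (1.51), TRIB1 (1.50), GDF15 (1.27), PLK2 (1.14) and DDIT4 (1.05).

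Part of the adhesion and acute phase genes had risen at 1 h. Of 21 adhesion and protease genes 5 were called. ICAM1, the ligand of leukocyte integrins, had 29.3, 19.6, 19.4 and 6.32 TPM in IL-1β libraries, against 0.332, 0.457, 0.633 and 0.539 TPM in NS libraries (4.10 ± 0.26). Library 4 was well below the other 3, yet all 4 lay above all NS libraries. SELE, which encodes E-selectin, was listed at 0 in all 4 NS libraries and had 1.89, 1.85, 1.71 and 1.45 TPM in IL-1β libraries. PLAU (2.86), the urokinase gene, F3 (1.60), the tissue factor gene, and ICAM4 (1.39) were the others. ICAM4 lies 0.34 kb from ICAM1, and 94.1% of its 31-base stretches also occur in transcripts of another gene, so its value is uncertain. Of 23 acute phase and prostanoid genes 6 rose. PTGS2, which encodes the inducible cyclooxygenase, had 341, 238, 393 and 307 TPM in IL-1β libraries, against 22.3, 26.1, 47.1 and 29.7 TPM in NS libraries (3.37 ± 0.31). SERPINA3, an acute phase protease inhibitor, had 37.1, 32.5, 29.9 and 23.5 TPM in IL-1β libraries, against 2.00, 3.57, 3.29 and 3.64 TPM in NS libraries (3.12 ± 0.22). PI3 (2.68), SOD2 (1.95), CFB (1.45) and C15orf48 (1.38) were the remaining ones, and for PI3, the elastase inhibitor elafin, library 4 was far above the others (2.41, 2.84, 2.16 and 9.50 TPM in IL-1β libraries, at most 0.326 TPM in NS libraries).

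Of 35 interferon system genes IRF1 was the 1 that rose. This transcription factor gene had 254, 207, 218 and 156 TPM in IL-1β libraries, against 8.40, 11.0, 10.3 and 10.8 TPM in NS libraries (4.28 ± 0.13), while the median over all 35 was -0.04. Of 20 cell cycle, 14 reference and 13 mitochondrially encoded genes 0 were called, as were 0 of the 5 tested alveolar type II, the 3 tested immune cell and the 5 tested fibroblast and endothelial markers. The highest difference in these 6 lists was 0.21 (TBP, a reference gene), and 2 reference genes and 0 genes of the other 5 lists had an unadjusted p under 0.05 in limma. Over all tested genes 1.02% were called higher and 0.0075% lower, so 0 calls in lists this short say little about them. An unadjusted p under 0.05 in limma was found for 1193 of the 13327 tested genes. Some 84 of the 136 genes belong to a list. Among the 52 that do not, TMEM88, whose protein acts on Wnt signaling, had 9.58, 9.05, 10.1 and 8.48 TPM in IL-1β libraries, against 0.373, 0.113, 0.237 and 0.489 TPM in NS libraries (3.63 ± 0.23). It lies 0.27 kb from KDM6B, a histone demethylase gene that rose as well (2.49 ± 0.34). TNFAIP2, induced by TNF in many cells, reached the highest level of this remainder, with 866, 683, 719 and 481 TPM in IL-1β libraries and 200.04, 192, 165 and 147 TPM in NS libraries (1.94 ± 0.13). CCL4, a chemokine gene, and CD69, an activation marker of lymphocytes, were listed at 0 in all 4 NS libraries and had at most 0.861 TPM in an IL-1β library.

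**Figure D2:**
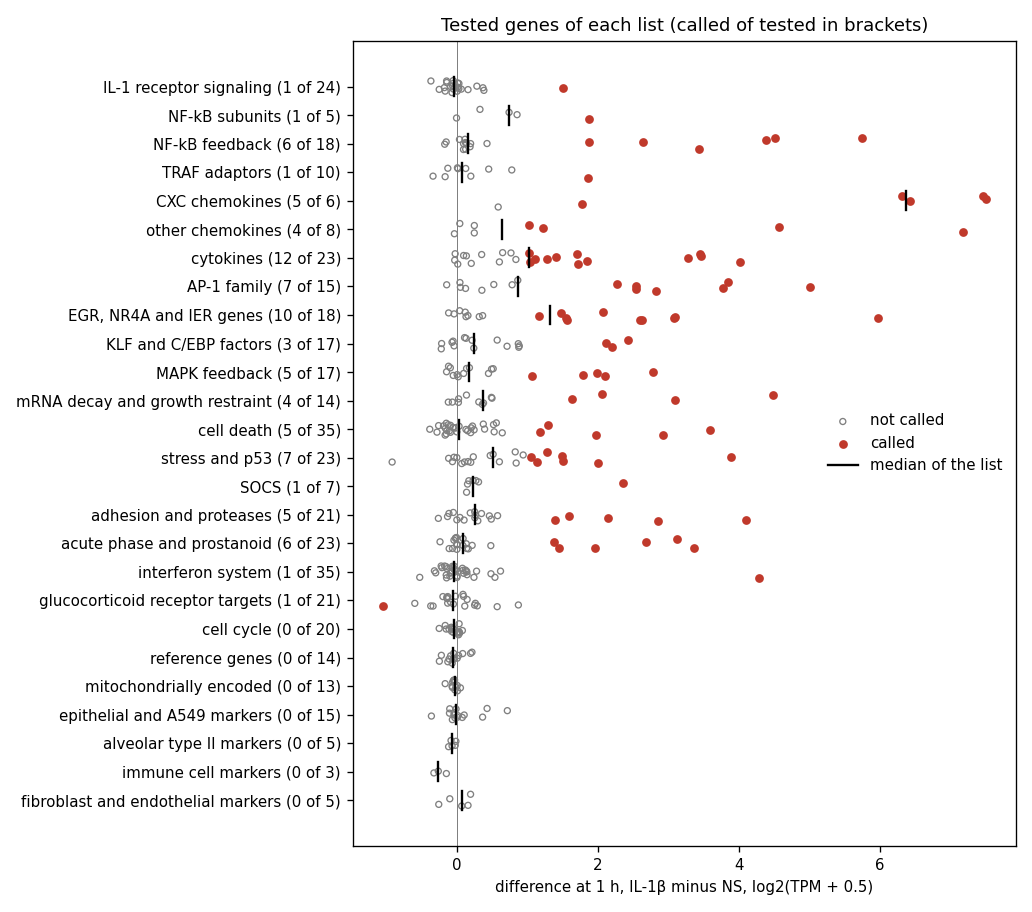
Difference at 1 h, IL-1β minus NS, in log2(TPM + 0.5), for every tested gene of each list; filled points are called genes, open points are not, black lines are list medians and the brackets give called of tested genes. The list of CXC chemokines, which holds neutrophil attractants only, has a median of 6.37 with 5 of 6 called. The interferon system has 1 of 35 called and the cell cycle list 0 of 20, where 1.02% of all tested genes were called higher.

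RGS2 was the only gene called lower. It encodes a regulator that shortens signaling by Gq-coupled receptors, and is a known GR target. It had 2.83, 2.87, 3.66 and 4.95 TPM in IL-1β libraries, against 7.25, 7.40, 7.52 and 8.98 TPM in NS libraries (difference -1.05 ± 0.19, limma adjusted p = 8.08e-05). The groups did not overlap, but the call lay at the edge of the minimum fold and was lost without IL-1β library 1 (-0.96), IL-1β library 2 (-0.97) or NS library 4 (-0.98). On adjusted p alone, without a minimum fold, 272 genes were higher (2.04%) and 60 lower (0.45%). The 60 had a median difference of -0.41, and the lowest after RGS2 were the transcription factor genes ZNF57 (-0.83) and TFAP4 (-0.76), the Wnt regulator FRAT2 (-0.73) and ID1 (-0.73), an inhibitor of DNA binding (all 4 chosen after their values were seen). At 2 h 9 of the 60 were called down, where 0.503% of all tested genes were. Of 21 GR targets tested 0 rose and RGS2 fell (limma, 5 at an unadjusted p under 0.05). Over all 13327 tested genes 1.02% rose, and 1193 had such a p in limma. PER1, a clock gene among them, passed on adjusted p alone (0.87).

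The 4 IL-1β libraries differed in how high these genes stood. Among the 136 genes, library 4 was the lowest of the 4 IL-1β libraries for 80 genes, against 11, 23 and 22 genes for libraries 1, 2 and 3. Library 1 was the highest for 60 genes, and libraries 2, 3 and 4 for 17, 41 and 18. This order did not hold for the 22 genes whose response was lower at 2 h than at 1 h, where library 4 was the lowest for 8 and the highest for 7. Relative to the mean of the group, the median deviation was 0.12, -0.002, 0.06 and -0.15 (log2) in libraries 1 to 4. In NS libraries the same genes deviated by -0.08, -0.007, 0.006 and 0.07, so NS library 4 was the highest for 54 genes and NS library 1 the lowest for 62. Without IL-1β library 4, 140 genes were called higher and 3 lower, and 133 of the 136 were among the 140. IL-1β library 4 also had the highest mitochondrial share of the 8 libraries, 15.98%. The cause of the order was not tested. Fewer cells that respond and less RNA per responding cell, for example, cannot be told apart in such bulk values.

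**Figure D3:**
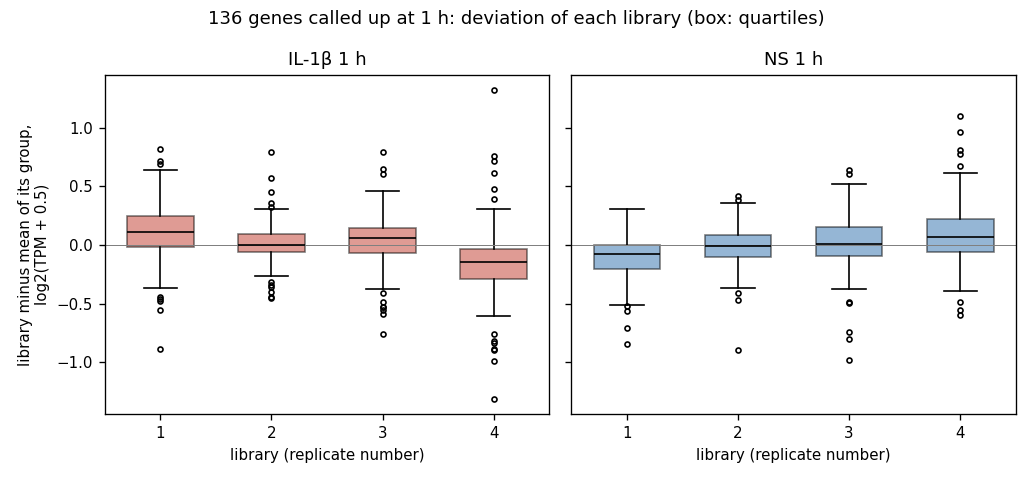
Deviation of each library from the mean of its group, in log2(TPM + 0.5), over the 136 genes called higher at 1 h, for the 4 IL-1β libraries (left panel) and the 4 NS libraries (right panel); boxes are quartiles, whiskers reach 1.5 times the box and points lie beyond. IL-1β library 4 has the lowest median (-0.15) and IL-1β library 1 the highest (0.12).

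The genes that rose by 1 h were short. For 136 of 136 genes the GENCODE annotation gave a length, with a median of 8.41 kb (quartiles 3.84 and 15.98 kb), against 33.1 kb (13.35 and 79.35 kb) over all tested genes with a length (99.0% of them). Genes under 10 kb made up 56.6% of the 136 and 18.9% of all tested genes, and genes over 50 kb 4.41% and 37.4%. The median number of exons in the main transcript was 4 against 9. The 263 genes called higher at 2 h but not at 1 h had a median length of 30.3 kb and 7 exons. NFKBIA and NFKB1 are 1 pair that follows this contrast. NFKBIA spans 3.67 kb and differed by 4.51 at 1 h. NFKB1 spans 115.97 kb and differed by -0.004 at 1 h and by 3.00 at 2 h. Other genes do not follow it, since 6 of the 136 span over 50 kb. Among them, IRF1 (68.28 kb) differed by 4.28 and ATF3 (55.44 kb) by 3.85 at 1 h. These lengths are the spans of all annotated transcripts of a gene. The RefSeq start of IRF1, used for its window above, lies inside its span. A transcript from that start is therefore shorter than the length given, and IRF1 is an uncertain exception. These are descriptions over genes, which are not replicates, and no test was made. The 136 were chosen by their change at 1 h, and gene length was not used in that choice.

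The later times show how the 136 genes went on. At 2 h 113 of them were called higher against NS at 2 h (83.1%, where 2.82% of all tested genes were), at 6 h 88 (5.21% of all), at 12 h 74 (3.65%) and at 24 h 70 (3.76%). A total of 61 were called higher at all 5 times and 17 at 1 h only. The 1 member called lower at a later time was GDF15, with a difference of -1.10 at 2 h. The highest of the 5 differences was at 1 h for 41 genes, at 2 h for 62, at 6 h for 18, at 12 h for 6 and at 24 h for 9. Conversely, the 113 genes were 30.1% of the 376 called higher at 2 h, and the 88 were 12.7% of the 695 at 6 h.

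The difference between the 2 h response and the 1 h response was tested as an interaction in the same model. Over all tested genes 226 were called higher (1.7%) and 65 lower (0.488%). Among the 136 genes, 49 were higher, 22 were lower and 65 were not called, though both the choice of the genes and this difference rest on the same 1 h libraries. EGR1 fell back most. It averaged 2.23 ± 0.39 TPM in IL-1β and 0.455 TPM in NS cells at 2 h (SD, n = 4), and its response was lower than at 1 h by 4.45 ± 0.28 on the log2 scale (limma adjusted p = 2.24e-20). DUSP1 averaged 25.6 TPM in IL-1β and 34.7 TPM in NS cells at 2 h, a response lower by 3.24 ± 0.17. FOS (-2.80) and IER2 (-2.68), both immediate early genes, followed. DUSP1, FOS and IER2 were not called at 2 h (-0.46, -0.26 and -0.08). GADD45B (-2.60), a stress sensor, and CCN1 (-2.55), a matrix protein gene, also had lower responses, and both were called lower than NS at 2 h (-1.77 and -2.59), although neither was called at 1 h (0.83 and -0.04).

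Other responses were larger at 2 h than at 1 h. ICAM1 averaged 235 ± 38.6 TPM in IL-1β and 0.702 TPM in NS cells at 2 h, a response higher by 3.55 ± 0.37 than at 1 h (limma adjusted p = 2.53e-11). CCL5 (3.66), which attracts T cells, G0S2 (3.28), an inhibitor of lipolysis, and LTB (3.17), a membrane cytokine of the TNF family, were likewise called at 1 h and had higher responses at 2 h. ADORA2A, an adenosine receptor gene, had the highest such difference (3.78 ± 0.29). It had 0.889, 0.733, 0.821 and 0.351 TPM in IL-1β libraries and 0.921, 1.22, 0.413 and 0.541 TPM in NS libraries at 1 h, and at 2 h averaged 12.4 TPM in IL-1β and 0.478 TPM in NS cells. IRAK2, a kinase of the IL-1 receptor complex itself, differed by 0.37 at 1 h and by 3.59 at 2 h (3.22 ± 0.15). Of the NF-κB subunits 1 of 5 was called at 1 h and 5 of 5 at 2 h, and of the adhesion and protease genes 5 of 21 and 13 of 21. Over all tested genes 1.02% were called higher at 1 h and 2.82% at 2 h.

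**Figure D4:**
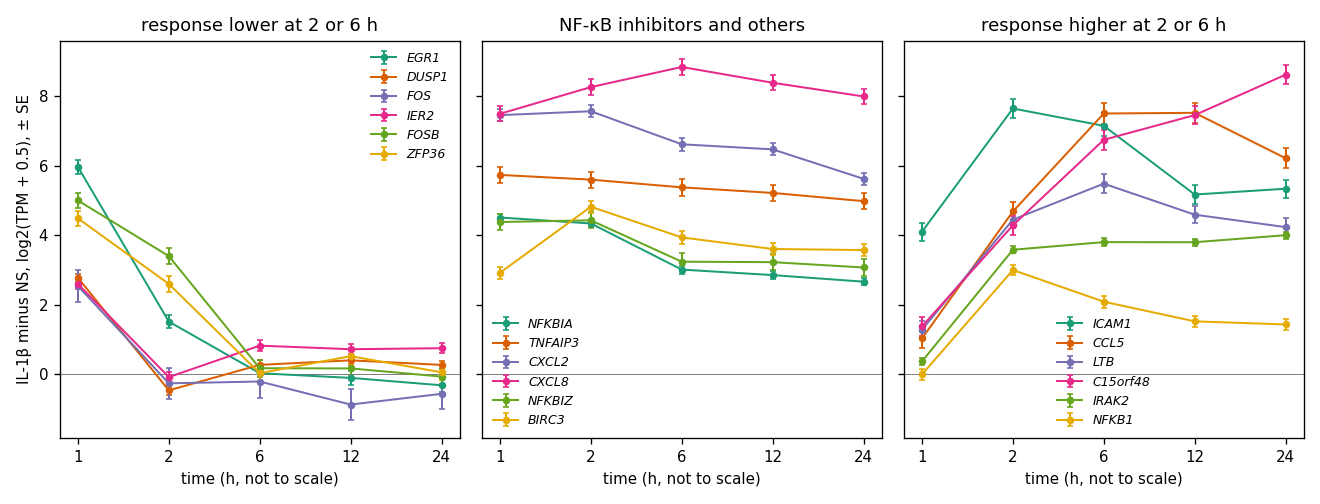
Difference IL-1β minus NS in log2(TPM + 0.5), ± SE, at 1, 2, 6, 12 and 24 h for 18 genes in 3 panels (time axis not to scale). EGR1 is at 5.97 at 1 h and 1.52 at 2 h, NFKBIA is at 4.51 and 4.34, and ICAM1 is at 4.10 and 7.65.

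Between 6 h and 1 h the responses of 592 genes were called higher (4.44%) and of 567 lower (4.25%). NS at 6 h held 3 libraries. Among the 136 genes 36 were higher and 42 lower. EGR1 (-5.94), FOSB (-4.83), ZFP36 (-4.46), TMEM88 (-3.35) and CSRNP1 (-3.02), a nuclear protein gene of the immediate early kind, had the largest losses among called genes, and each was within 0.3 of NS at 6 h. FOSB averaged 0.282 TPM in IL-1β and 0.201 TPM in NS cells at 6 h. The sixth was the receptor gene ERBB3 (-2.98), which was not called at 1 h (0.16 ± 0.50) and fell below NS at 6 h (-2.81). The gains were led by CCL5 (6.48), SAA1 (5.87), MX1 (5.57), UBD (5.47), GBP1 (5.42) and C15orf48 (5.37). MX1 and GBP1, both interferon-stimulated, were at -0.30 and 0.10 at 1 h and not called. Of the interferon system list 1 of 35 genes was higher at 1 h, 5 at 2 h and 33 at 6 h. Over all tested genes these shares were 1.02%, 2.82% and 5.21%. UBD was called at 1 h with a difference of 1.00 and at most 1.05 TPM in a library, its call was lost without NS library 1, 2 or 3 or IL-1β library 4 (lowest 0.84), and 93.3% of its 31-base stretches occur in transcripts of another gene.

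Budesonide given with IL-1β for 1 h changed few of these genes by 2-fold or more. Of the 136, 104 were called higher with the cotreatment against NS (1.07% of all tested genes were) and 32 were not called, with a median difference of 1.75, though these values share the NS libraries. Relative to IL-1β, 20 genes were called higher (0.15%) and 12 lower (0.09%) with the cotreatment, and among the 136 genes 3 were higher, 12 lower and 121 not called. A reduction of under 2-fold is not counted there, and on adjusted p alone 37 of the 136 were lower, of 51 among all tested genes. The median difference over the 136 was -0.36, against -0.005 over all tested genes. The same IL-1β libraries chose the 136 genes. Library 4 of the cotreatment stood apart from its group (median absolute log2 distance to the mean of the other 3, 0.290, against 0.140 to 0.150 for those 3), and without it 23 genes were higher and 13 lower, of which 3 and 12 were among the 136. FOSB had 23.2, 17.0, 19.1 and 16.6 TPM with the cotreatment, against 47.4, 46.8, 47.6 and 41.4 TPM with IL-1β, a difference of -1.26 ± 0.23 (limma adjusted p = 0.000175). BCL2A1 had 16.2, 14.5, 17.8 and 16.5 TPM with the cotreatment, against 30.5 to 47.9 TPM with IL-1β (-1.16 ± 0.20), and so remained well above the NS libraries. The other 4 of the lowest 6 were NEURL3 (-1.23), a ubiquitin ligase gene, RND1 (-1.22), BBC3 (-1.10) and EGR3 (-1.07). IL6 (-1.05), IL23A (-1.04), MSC (-1.03), IER5 (-1.02), IL1A (-1.02) and IER2 (-1.01) were also called. Without 1 library of either group at a time, the count of genes called lower lay between 8 and 16. Without IL-1β library 4 there were 18 genes called higher and 16 lower, of which 1 and 16 were among the 136. EGR3 lost its call without IL-1β library 1 (-0.98), IL-1β library 3 (-0.99) or cotreatment library 4 (-0.95).

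Among the 20 called genes with the highest difference at 1 h, FOSB and BCL2A1 were called lower with the cotreatment, and the others were not called. Of the genes not called between cotreatment and IL-1β, CXCL8 differed by -0.55, CXCL2 by 0.05, CXCL1 by -0.02, NFKBIA by -0.07, TNFAIP3 by -0.02 and BIRC3 by 0.09. SERPINA3 was the member raised most by adding budesonide, with 135, 98.7, 125 and 87.5 TPM with the cotreatment, against 37.1, 32.5, 29.9 and 23.5 TPM with IL-1β (1.84 ± 0.22, limma adjusted p = 9.21e-09). RRAD (1.12), a small GTPase gene, and TCHH (1.08), the trichohyalin gene, were the other 2. Outside the 136, TSC22D3 (2.13), which encodes the GR-induced protein GILZ, ANGPTL4 (2.08), PTGER4 (1.81), RGS2 (1.71) and SAA1 (1.58) made up the rest of the highest 6. RGS2 had 9.88, 12.1, 15.1 and 13.6 TPM with the cotreatment, against 2.83 to 4.95 TPM with IL-1β.

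Budesonide alone raised 24 genes at 1 h against NS (0.18%). It shares the NS libraries with the IL-1β comparison, so only values are given side by side. NFKBIA differed by 2.02 with budesonide and 4.51 with IL-1β, ZFP36 by 2.24 and 4.49, DUSP1 by 2.21 and 2.78, KLF6 by 1.84 and 2.11, and BIRC3 by 1.08 and 2.92. In contrast, CXCL8 differed by -0.14 with budesonide and by 7.50 with IL-1β, IER2 by -1.24 and 2.60, and RGS2 by 2.26 and -1.05.

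**Figure D5:**
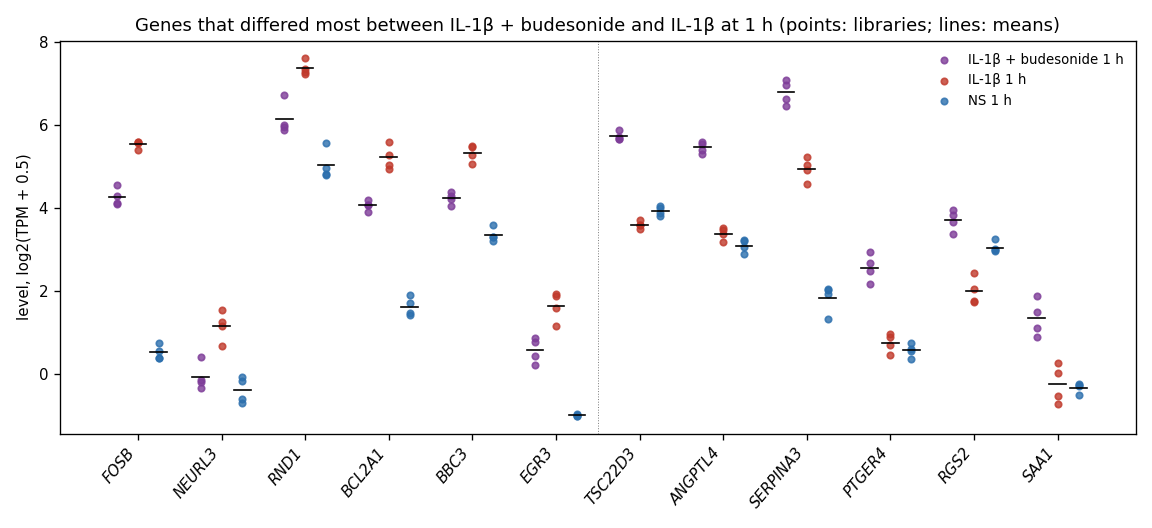
Level as log2(TPM + 0.5) at 1 h in each library of IL-1β plus budesonide (left), IL-1β (middle) and NS (right) for the 6 genes with the lowest and the 6 with the highest called difference between cotreatment and IL-1β; points are libraries and lines are means. BCL2A1 lies between the other groups with the cotreatment (14.5 to 17.8 TPM), and SERPINA3 lies above both (87.5 to 135 TPM).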

How the data were processed

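A549 cells were treated in independent experiments, and poly(A) RNA was sequenced from stranded libraries. The authors quantified transcripts with kallisto on the human build GRCh38 (hg38) and normalized them between libraries with sleuth. The deposited table gives TPM values rescaled in this way by the authors, which are treated as a normalized signal and were not rescaled again. The authors' own comparison tables (fold changes and adjusted p-values) were not used. Groups were taken from the titles in the labels, and 1 library in the table with no label was left out. The study's methods give 1 approximate depth for all libraries, and the reads of each library are not in the table, so no counting interval is given for levels and the depth per library is unknown here.

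The filter kept genes that reached 1 TPM in 3 or more libraries (13327 of 19652). Values of log2(TPM + 0.5) from the 78 libraries entered a limma model (version 3.58.1, R version 4.3.3) with a mean for each group and a trend on mean level, leaving 58 residual degrees of freedom. Tests were two-sided. In simulated data for IL-1β against NS at 1 h (13327 genes), calls were made for 50, 49 and 50 of the 50 genes simulated at each of 3-fold, 4-fold and 8-fold, and for 0 of 50 at 1.5-fold, which is under the minimum fold. The changed genes were drawn from those above a minimum mean level, and the simulated noise was independent between libraries. This recovery therefore does not describe genes with low values, and 38 of the 136 averaged below 1 TPM in NS libraries. Replicate numbers were checked for pairing: deviations of same-numbered IL-1β and NS libraries correlated by 0.152, 0.118, 0.245 and 0.464, each library best with its own number, and a fit with the number as a block was an alternative. The other alternatives concerned the pseudocount, filter, scaling, samples in the fit, trend, minimum fold and each replicate.

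Genes were named by rule: the 20 highest and up to 5 lowest called genes without overlap of libraries, every called member of the lists, the 6 highest and lowest called differences of the 2 h and 6 h responses and of the cotreatment, and BIRC3, BIRC2 and IL1R1. The genes and lists were chosen with earlier results of these data known. Promoters were matched by symbol to RefSeq windows (GRCh38.p14), and lengths, exons and shared 31-base stretches came from GENCODE. Of the 136 genes called higher, 4 (ICAM4, UBD, CDC42EP2 and POU5F1) had over 50% of such stretches in transcripts of another gene.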

Additional observations from a re-analysis of the deposited data

Results flagged for a closer look

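Single libraries stood apart from the other 3 of their group for 6 of 89 sets of values examined (1 gene in 1 group of 4 each), by Dixon's ratio at its 95% critical value, which chance exceeds in about 1 of 20 sets. These were FOSB in IL-1β (library 4, 41.4 TPM), IL1A in IL-1β (library 1, 5.63 TPM), PI3 in IL-1β (library 4, 9.50 TPM), TNF in NS (library 4, 0.0356 TPM), JUN in NS (library 4, 9.91 TPM) and RGS2 in NS (library 4, 8.98 TPM). The library numbered 4 was the one that stood apart in 5 of the 6. These 5 include TNF, where the other 3 NS values were 0, so that any value above 0 would have been flagged.

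The response to IL-1β differed between times by the interaction test for the genes named at each time. At 2 h against 1 h it was higher for ADORA2A (3.78), CCL5 (3.66), ICAM1 (3.55), G0S2 (3.28), IRAK2 (3.22) and LTB (3.17), and lower for EGR1 (-4.45), DUSP1 (-3.24), FOS (-2.80), IER2 (-2.68), GADD45B (-2.60) and CCN1 (-2.55), all on the log2 scale. At 6 h against 1 h it was higher for CCL5 (6.48), SAA1 (5.87), MX1 (5.57), UBD (5.47), GBP1 (5.42) and C15orf48 (5.37), and lower for EGR1 (-5.94), FOSB (-4.83), ZFP36 (-4.46), TMEM88 (-3.35), CSRNP1 (-3.02) and ERBB3 (-2.98).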

How the results depend on the processing

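The 136 genes called higher at 1 h became 272 on adjusted p alone, and 131 to 140 without 1 library at a time. A pseudocount of 1 called 113 of the 136, quantile normalization 132, a fit to only the 8 libraries 128, and median-of-ratios scaling and the replicate block all 136. A mean of 5 TPM or more left 95 of the 136 in the test, all 95 called. The 1 gene called lower became 3 with a pseudocount of 0.1, 0 with a pseudocount of 1 (adjusted p alone, 60), 3 in the fit to only the groups compared, 3 with the replicate block on those 8 libraries (added after seeing the data), and 0 to 3 without 1 library. The replicate block in the full fit changed no call of a named gene. For the 2 h against the 1 h response, 226 higher and 65 lower calls became 455 and 213 on adjusted p alone, 128 higher with a mean of 5 TPM or more, and 204 to 236 and 55 to 74 without 1 library. For 6 h against 1 h, 592 and 567 became 1782 and 1921 on adjusted p alone, 366 and 284 with a mean of 5 TPM or more, 361 lower with a pseudocount of 1, and 559 to 610 and 534 to 581 without 1 library. For the cotreatment against IL-1β, 20 and 12 became 69 and 51 on adjusted p alone, 13 and 6 with a pseudocount of 1 and again with a mean of 5 TPM or more, and 16 to 23 and 8 to 16 without 1 library. For named genes of the cotreatment, the calls of SAA1, NEURL3 and EGR3 were lost in the fit to only the groups compared, those of NEURL3 (-0.91) and EGR3 (-0.87) with a pseudocount of 1, and that of FOSB (-1.28) with a pseudocount of 0.1. The cause of these moves was not tested, except that a minimum mean leaves fewer genes. No named gene reversed.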
